A study of Mus musculus with 2 samples.

Results

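The genes described here are 6 receptors for the transmitters of the autonomic nervous system and 3 enzymes that make cyclic AMP: the adrenergic receptors Adrb1, Adrb3, Adra1a, Adra1b and Adra1d, the muscarinic acetylcholine receptor Chrm2, and the adenylyl cyclases Adcy5, Adcy6 and Adcy9. They were found by gene symbol, through the Ensembl identifier of each row, and are 9 of the 43346 Ensembl genes in the deposited tables, with 21 annotated transcripts. RNA was measured by poly(A) RNA sequencing of heart tissue from a single biological replicate of the mouse strain C57BL/6J, female, adult and aged 10 weeks, with no genetic change or treatment named. The labels do not say how many animals the biological replicate holds. RNA was isolated with the RNeasy Lipid Tissue Mini Kit and sequenced in 2 libraries, technical replicates 1 and 2, of which the second was made in 2015, after the study's publication. There is no second condition, so the comparisons possible are those between genes within a library and those between the 2 libraries. An SD over these libraries (n = 2) is technical and does not describe mice.

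In the heart, noradrenaline released by sympathetic nerves acts on β-adrenergic receptors, which couple through the stimulatory G protein to adenylyl cyclase, and cyclic AMP then activates protein kinase A to raise the rate and force of the beat. Acetylcholine from the vagus nerve acts on the muscarinic receptor encoded by Chrm2, which couples to inhibitory G proteins, lowers cyclic AMP and opens potassium channels that slow the pacemaker. The α1-adrenergic receptors take another route, through the Gq family and phospholipase C to calcium release and protein kinase C.

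All 6 receptors are of the class with 7 membrane-spanning helices, and at the inner end of the third helix each carries the Asp-Arg-Tyr motif that takes part in G protein coupling. The 57 coding bases around that motif are printed from the GENCODE M21 transcripts, 5′ to 3′ on the coding strand with the Asp-Arg-Tyr codons in capitals. They set the receptors side by side at a matched position and show how widely the base composition of these mRNAs ranges, a property that moved with the difference between the libraries.
Adrb1: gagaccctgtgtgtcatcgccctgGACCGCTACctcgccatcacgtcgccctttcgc
Adrb3: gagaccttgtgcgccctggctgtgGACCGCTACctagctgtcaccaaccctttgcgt
Adra1a: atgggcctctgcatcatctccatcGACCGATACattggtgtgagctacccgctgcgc
Adra1b: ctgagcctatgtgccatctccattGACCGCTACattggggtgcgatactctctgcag
Adra1d: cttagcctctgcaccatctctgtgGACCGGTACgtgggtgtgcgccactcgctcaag
Chrm2: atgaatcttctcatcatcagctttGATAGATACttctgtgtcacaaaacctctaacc

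On mm10 the Adrb1 stretch lies at chr19:56722810-56722866 on the plus strand, in the only exon of its transcript, and the Chrm2 stretch lies at chr6:36523543-36523599 on the plus strand, in its only coding exon. Adrb3 shared 40 of the 57 bases with Adrb1, Adra1a shared 33, Adra1b shared 32, Chrm2 shared 27 and Adra1d shared 26. The GC content of the stretch ran from 36.8% in Chrm2 to 64.9% in Adrb1. Over whole transcripts Chrm2 was again the lowest of the 9 genes, at 41.6% GC, and Adra1d was the highest, at 65.4%.

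In the M21 annotation of mm10 the β receptor genes lie at chr19:56722199-56733113 on the plus strand (Adrb1) and chr8:27225776-27250616 on the minus strand (Adrb3). Adra1a lies at chr14:66635251-66771168 on the plus strand, Adra1b at chr11:43774606-43901210 on the minus strand and Adra1d at chr2:131545850-131562283 on the minus strand. Chrm2 lies at chr6:36388084-36528414 on the plus strand. The cyclase genes are split into many more coding exons, with 21 in Adcy5 at chr16:35154877-35305738 on the plus strand, 21 in Adcy6 at chr15:98589973-98610076 on the minus strand and 10 in Adcy9 at chr16:4287529-4420498 on the minus strand.

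The tissue label was checked against marker lists, and values are given in TPM, a relative abundance corrected for transcript length. None of the 6 cardiomyocyte markers was under 1 TPM in either library. The highest were Myl2, a ventricular myosin light chain, at 546 TPM in replicate 1 and 10108 TPM in replicate 2, Tnnt2, troponin T, at 120 and 6078 TPM, and Actc1, cardiac actin, at 240 and 4224 TPM. All 5 endothelial markers passed 1 TPM in both libraries, with summed levels of 20.5 and 232 TPM. By the mean of both libraries Egfl7, Pecam1 and Cdh5 were the highest of them. In replicate 1 alone Kdr, at 7.57 TPM, and Tek, at 4.13 TPM, were higher than these. Of the 4 fibroblast markers 3 passed 1 TPM in replicate 1 and 4 in replicate 2, with sums of 150 and 829 TPM. Gsn, Dcn and Col1a1 were the highest by the mean of both libraries. In replicate 1 alone Dcn was the highest, at 143 TPM, and Col1a1 the lowest, at 0.99 TPM. Over all 43346 genes, 6274 reached 1 TPM in replicate 1 and 11772 in replicate 2.

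The libraries stood apart in composition. Replicate 1 held 22775991 counts and replicate 2 held 19685821, and mitochondrial genes with their near-identical nuclear copies took 77.9% of them in replicate 1 and 35.7% in replicate 2. That left 5028154 and 12654724 counts for other nuclear genes. The mean GC content behind those nuclear counts was 45.0% in replicate 1 and 50.5% in replicate 2. Every level is therefore given in each library, and the nuclear TPM, which is TPM rescaled after mitochondrial genes and copies were set aside, is used to compare a gene between libraries. For each gene the libraries were compared on TMM-scaled counts by edgeR's exact binomial test, two-sided, with Benjamini-Hochberg adjustment over all 13182 genes with at least 20 counts. A gene was called at an adjusted p under 0.05 and a difference of at least 2-fold. The test compares these 2 libraries over counting error only, and bulk RNA cannot tell fewer cells of a type from less RNA per cell.

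Of the 9 genes, 6 were called higher in replicate 2, against 40.5% of all genes tested, and 1 was called lower, against 23.9% of all. In either direction 7 were called, beside 64.4% of all genes tested. The 6 were Adrb3, Adra1b, Adra1d, Adcy5, Adcy6 and Adcy9, the 1 was Chrm2, and Adrb1 and Adra1a were not called. The median log2 ratio of the 9 genes (replicate 2 over replicate 1) was 2.92, or 2.67 with the gene that had no count in replicate 1 set at 3 counts there. The median over all genes tested was 0.37. In replicate 1 only Chrm2 reached 1 TPM, beside 6274 of all 43346 genes, and in replicate 2 all 9 genes did, beside 11772. On the nuclear scale only Adrb3, at 0.277 TPM, and Adra1d, with no count, were under 1 TPM in replicate 1.

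**Figure D1:**
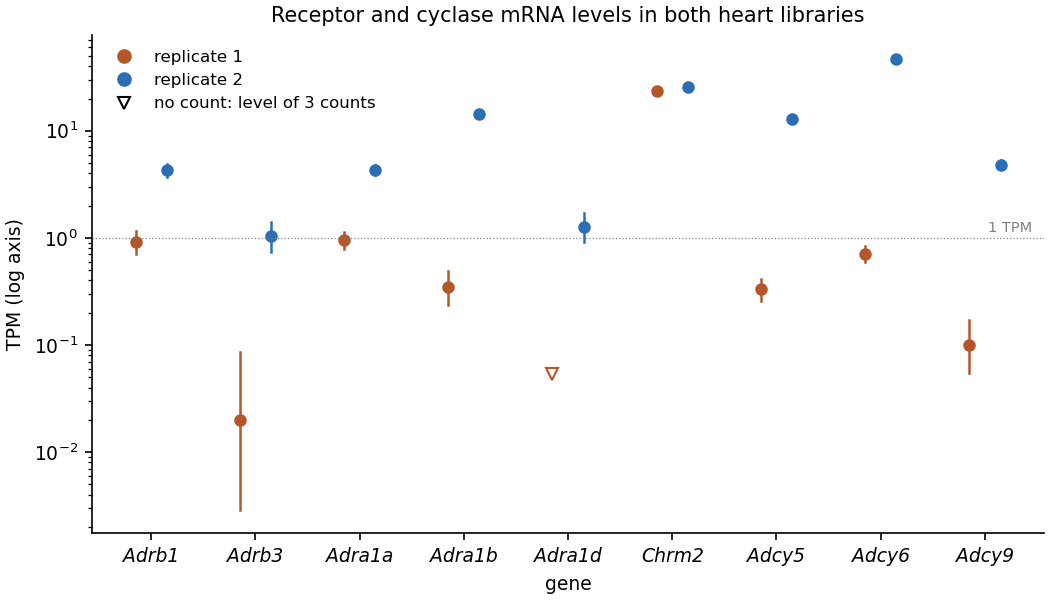
TPM of the 9 genes on a log axis, in replicate 1 (brown) and replicate 2 (blue). Points are the deposited TPM, bars are 95% exact Poisson intervals that cover counting error only, the triangle marks the level of 3 counts for the gene with no count, and the dotted line is at 1 TPM. Chrm2 sits near 25 TPM in both libraries, and the other 8 genes are below 1 TPM in replicate 1 and above it in replicate 2.

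Adrb1 encodes the β1-adrenergic receptor, the main β receptor of heart muscle. It had 68 counts and 0.91 TPM in replicate 1 and 190 counts and 4.27 TPM in replicate 2, a mean of 2.59 TPM ± 2.38 (SD, n = 2). On the nuclear scale the levels were 12.6 and 10.9 TPM, so the libraries lay close together once mitochondrial RNA was set aside. Replicate 2 over replicate 1 the scaled count ratio was 1.12 (95% exact binomial interval 0.846 to 1.503), with an adjusted p of 0.478 by the exact binomial test. Adrb1 stood above 58.4% of the nuclear genes with a count in replicate 1 and above 56.1% in replicate 2, a place in the middle of the range. With libraries scaled by total counts instead, its log2 ratio was 1.69 and it was called higher, as was Adra1a at 1.61.

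Adrb1 lay below the ratio that went with its base composition. Its transcript has 58.8% GC, and genes in the same bin of GC content had a median log2 ratio of 4.41, while that of Adrb1 was 0.16. The gap was called by the exact binomial test against that expectation (adjusted p = 2.74e-55). That p covers counting error only and not the spread of genes about the median of their bin. Of all genes tested, 10.2% were called higher and 10.9% lower against the median of their own bin. Within the mRNA, GC content was 68.7% over the 1398 coding bases and 45.8% over the 1378 bases that follow them. The M21 transcript is 461 bases longer than the 2491 bases listed in the tables. Whether the course of GC content along the mRNA, or the extra length, has a part in the ratio was not tested.

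Adrb3 encodes the β3-adrenergic receptor, best known for driving lipid breakdown and heat production in fat cells. It had 2 counts and 0.02 TPM in replicate 1 and 39 counts and 1.03 TPM in replicate 2, or 0.277 and 2.63 nuclear TPM. Replicate 2 was higher by 7.83-fold with a wide interval (95% exact binomial interval 2.03 to 66.9), and the adjusted p was 0.000289 by the exact binomial test. Its level in replicate 1 rests on fewer than the 3 counts that a count of 0 would allow. Adrb1 exceeded Adrb3 in both libraries, by 38.5-fold in counts per effective length in replicate 1 (95% exact binomial interval 10.3 to 324) and by 4.13-fold in replicate 2 (2.91 to 5.99).

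Fat cell markers were also looked at beside Adrb3. Of 6 adipocyte markers, 2 reached 1 TPM in replicate 1 and 5 in replicate 2, and the summed level was 2.89 and 32.9 TPM, or 40.0 and 84.1 nuclear TPM. Of the 5 tested 4 were called higher in replicate 2, against 40.5% of all genes, and 0 lower. Calls were not particular to fat: 5 of 6 cardiomyocyte, 3 of 5 endothelial and 2 of 4 fibroblast markers were called higher, and 0 lower. Ucp1, the uncoupling protein of brown fat, had 1.52 and 13.0 TPM, or 21.1 and 33.4 nuclear TPM, and was called higher. Adipoq, which encodes adiponectin, had 1.26 and 8.29 TPM, or 17.5 and 21.2 nuclear TPM, and was not called. Cidec, a lipid droplet protein, had no count in replicate 1 and 7.09 TPM in replicate 2, and Lep, the leptin gene, stayed at 0.03 and 0.05 TPM. The part of fat tissue in the Adrb3 level was not tested.

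Among the α1 receptors the libraries gave different leaders. Adra1a, the α1A subtype, had 122 counts and 0.96 TPM in replicate 1 and 322 counts and 4.29 TPM in replicate 2, a mean of 2.63 TPM ± 2.35 (SD, n = 2). Its nuclear TPM was 13.3 and 11.0, and the scaled count ratio of 1.06 (95% exact binomial interval 0.858 to 1.32) gave an adjusted p of 0.626 by the exact binomial test. With 50.2% GC it lay near the middle of the range of composition, and genes in its GC bin had a median log2 ratio of 0.58 against its own 0.08. For Adrb1 and Adra1a the sign depended on the scale, since nuclear TPM was lower in replicate 2 and the TMM-scaled count higher.

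Adra1b, the α1B subtype, had 32 counts and 0.35 TPM in replicate 1 and 613 counts and 14.2 TPM in replicate 2, or 4.85 and 36.3 nuclear TPM. Replicate 2 was higher by 7.69-fold (95% exact binomial interval 5.39 to 11.3; adjusted p = 8.63e-53 by the exact binomial test). Genes in its bin of GC content, at 57.3%, had a median log2 ratio of 3.79, and Adra1b had 2.92.

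Adra1d, the α1D subtype, known for its role in the contraction of arteries, had no count in replicate 1 and 42 counts and 1.27 TPM in replicate 2. A count of 0 allows 3 counts, or 0.054 TPM, in replicate 1. With replicate 1 set at that limit, replicate 2 was 5.62-fold higher on the scaled counts. From the counts themselves, the 95% exact binomial interval of the ratio starts at 4.37 (adjusted p = 1.65e-06 by the exact binomial test). With 65.4% GC it is the most GC-rich of the 9 genes, and genes in its bin had a median log2 ratio of 5.28.

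Smooth muscle and pericyte markers, for cells of the vessel wall, also differed between the libraries. Of 7 such markers 2 reached 1 TPM in replicate 1 and all 7 in replicate 2, none was at 0, and the summed level was 105 and 377 TPM. On the nuclear scale the sum was 1457 and 965 TPM. Most of it in replicate 1 was Rgs5, a pericyte marker, at 1393 and 322 nuclear TPM and called lower in replicate 2. The other 6 markers were called higher, against 40.5% of all genes, among them Acta2, smooth muscle actin, at 2.75 and 122 TPM, and Smtn, smoothelin, at 0.30 and 76.6 TPM. The part of vessel wall cells in the Adra1d level was not tested.

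Adra1a made up 73.3% of the summed α1 TPM in replicate 1 and 21.7% in replicate 2, and Adra1b made up 26.7% and 71.9%. Within replicate 1 Adra1a exceeded Adra1b by 2.77-fold in counts per effective length (95% exact binomial interval 1.86 to 4.23), and within replicate 2 Adra1b exceeded Adra1a by 3.32-fold (2.89 to 3.81). Neither interval holds a ratio of 1, so each library gave a clear order and the orders were opposite. The mean log2 ratio of Adra1a over Adra1b, on TPM + 0.1, was -0.23 ± 2.08 (SD, n = 2), and these data do not settle which α1 mRNA is the more abundant. The mean was -1.69 with replicate 1 brought to the GC profile of replicate 2, beside -1.70 in replicate 2 alone. Adra1d was below Adra1a and Adra1b in each library. With Adra1d set at 3 counts in replicate 1, Adra1a was 17.7-fold higher there, and the 95% exact binomial interval starts at 14.2. In replicate 2 Adra1a was 3.38-fold higher than Adra1d (95% exact binomial interval 2.44 to 4.77).

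Adra1a produces receptors with different ends, and its transcripts differed between libraries in their shares. Adra1a-203, which encodes 427 residues, carried 94.0% of the gene's abundance in replicate 1 and 52.2% in replicate 2, and it was the leading transcript in both. Adra1a-201, which encodes 466 residues, was at 0 in replicate 1 and carried 40.3% in replicate 2. The transcripts share 1269 coding bases and part after that, Adra1a-203 by splicing to an exon downstream and Adra1a-201 by reading on. The last 30 shared bases are given in lower case and each transcript's own coding end with its stop codon in capitals, from GENCODE M21, since these ends are all that separates the encoded proteins.
Adra1a-203: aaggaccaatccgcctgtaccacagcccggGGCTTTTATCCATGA
Adra1a-201: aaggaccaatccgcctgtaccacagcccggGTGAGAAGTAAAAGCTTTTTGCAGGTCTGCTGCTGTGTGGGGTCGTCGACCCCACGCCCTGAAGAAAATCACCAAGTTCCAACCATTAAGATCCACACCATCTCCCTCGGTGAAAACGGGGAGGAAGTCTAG

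The last shared base is at position 66727831 of chromosome 14. The end of Adra1a-201 runs on from there to chr14:66727832-66727963, and that of Adra1a-203 lies at chr14:66731564-66731578. The assigned counts were 114.55 for Adra1a-203 in replicate 1, and 169.91 for Adra1a-203 and 131.97 for Adra1a-201 in replicate 2. These are estimates that divide reads common to both forms, so a share of 0 is an estimate and not an absence.

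The transcripts of Adra1b differ in where they start. Adra1b-202 and Adra1b-204 have the same 3047-base sequence in M21, so their counts cannot be told apart, and each was given 50% of the abundance in replicate 1 and 25.5% in replicate 2. Both start at the proximal first exon. Adra1b-203, a 1764-base transcript with 4 exons that starts at a distal first exon and is annotated without the end of the coding sequence, was at 0 in replicate 1 and carried 49.0% in replicate 2. The 32 counts of replicate 1 and 613 of replicate 2 stand behind these shares. By the deposited posterior means Adra1b-203 had 16.8% in replicate 1 and 48.9% in replicate 2, and Adra1b-201, which also has the distal start, had 15.1% and 1.1%, so the 0 in replicate 1 rests on the estimate chosen.

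The sequence before each start is shown because the starts differ so far in composition. The 250 bases upstream of the RefSeq start sites are given on the gene's strand from the RefSeq promoter table on GRCm38.p6, with the GC-box letters GGGCGG or their reverse complement CCGCCC in capitals. The proximal window is at chr11:43836490-43836739 and the distal window at chr11:43901238-43901487, both on the minus strand.
Adra1b proximal: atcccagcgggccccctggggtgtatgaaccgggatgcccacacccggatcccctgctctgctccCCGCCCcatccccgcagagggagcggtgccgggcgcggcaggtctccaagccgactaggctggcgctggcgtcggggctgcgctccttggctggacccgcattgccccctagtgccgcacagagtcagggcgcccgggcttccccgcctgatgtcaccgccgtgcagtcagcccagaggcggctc
Adra1b distal: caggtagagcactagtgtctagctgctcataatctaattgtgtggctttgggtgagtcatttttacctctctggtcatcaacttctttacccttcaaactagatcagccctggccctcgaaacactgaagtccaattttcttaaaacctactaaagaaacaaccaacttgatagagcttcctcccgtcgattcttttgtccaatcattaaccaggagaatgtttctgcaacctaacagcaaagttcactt

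The proximal window had 72.8% GC and the distal window 41.6%, beside a median of 52.4% over all 32851 RefSeq promoter windows. GGGCGG, searched on both strands, was found at 1 place in the proximal window and at none in the distal window, and 32.7% of all windows hold it. CCAAT, searched on both strands, was found at 2 places in the distal window and at none in the proximal window, and 33.8% of all windows hold it. TATAAA, on both strands, was in neither, and 12.4% of all windows hold it. These are matches of letters and say nothing of binding.

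Adrb3 had 3 annotated transcripts, and its few counts gave Adrb3-201 100% in replicate 1 and 29.7% in replicate 2, with Adrb3-203 at 0% and 70.3%. Both encode 400 residues. With 2 counts in replicate 1 the first of these shares carries little weight.

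**Figure D2:**
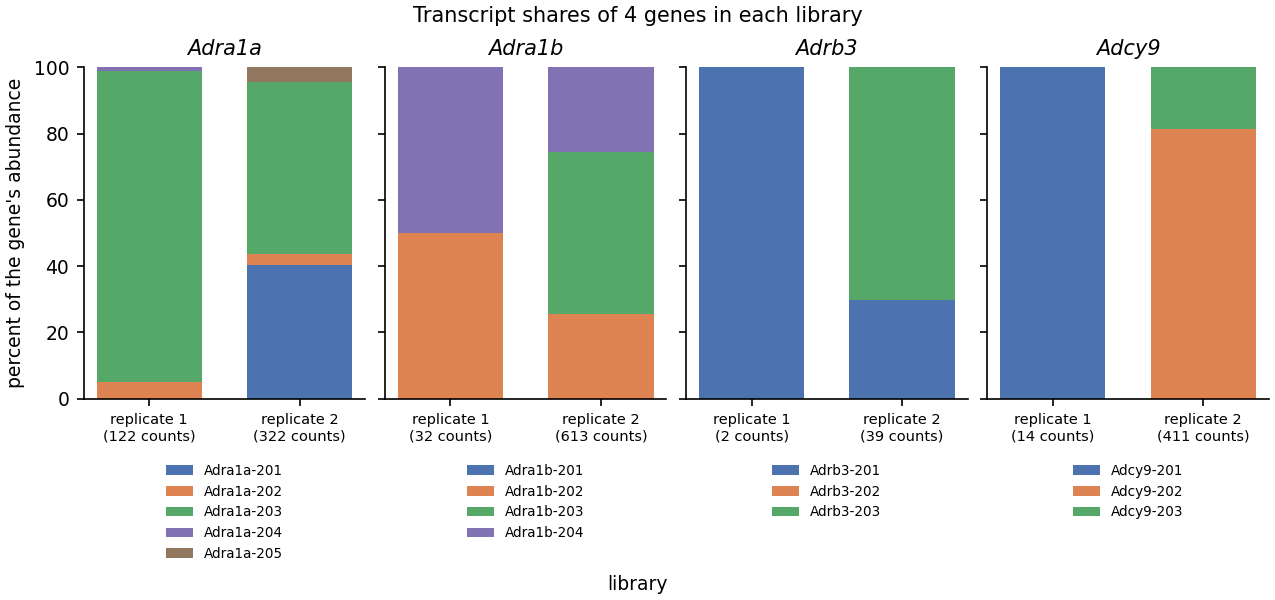
Share of each gene's abundance carried by each annotated transcript, as the deposited percent, in replicate 1 and replicate 2 for Adra1a, Adra1b, Adrb3 and Adcy9, with the gene's counts under each bar. Adra1a-203 leads in both libraries, at 94.0% and 52.2%, while the leading transcripts of Adrb3 and Adcy9 change between libraries. For Adra1b no change of leader can be stated, because Adra1b-202 and Adra1b-204 have the same sequence. Each holds 50% in replicate 1 and 25.5% in replicate 2, where Adra1b-203 holds 49.0%.

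Chrm2, the muscarinic receptor of the pacemaker and the atria, was the most abundant receptor of the set in both libraries. It had 4175 counts and 23.6 TPM in replicate 1 and 2713 counts and 25.7 TPM in replicate 2, a mean of 24.6 TPM ± 1.48 (SD, n = 2). On the deposited TPM scale it was thus the only one of the 9 genes with close levels. On the nuclear scale it had 327 and 65.7 TPM, and the scaled counts were 3.83-fold higher in replicate 1 (95% exact binomial interval 3.65 to 4.02). The deposited TPM was thus slightly higher in replicate 2, and the nuclear TPM and the scaled counts were lower. With libraries scaled by total counts its log2 ratio was -0.41 and it was not called. In replicate 1 it stood above 96.6% of the nuclear genes with a count, and in replicate 2 above 88.0%.

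Chrm2 is also the most AT-rich mRNA of the set. Its coding sequence of 1398 bases has 48.3% GC, and the 3804 bases that follow the coding sequence have 37.1%. Genes in its bin of GC content had a median log2 ratio of -1.63, and Chrm2 had -1.94. Nearly all of its abundance was given to Chrm2-202, with 99.5% in replicate 1 and 99.6% in replicate 2. The gene 9330158H04Rik overlaps it on the other strand and had 42 and 161 counts, and without a statement on strand in the counting these cannot be kept apart with certainty.

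Chrm2 made up 91.3% of the summed TPM of the 6 receptors in replicate 1 and 50.6% in replicate 2. It exceeded Adrb1 by 25.9-fold in counts per effective length in replicate 1 (95% exact binomial interval 20.4 to 33.4) and by 6.02-fold in replicate 2 (5.19 to 7.01). Adrb1 in turn exceeded Adra1b by 2.64-fold in replicate 1 (1.71 to 4.15) and was below it in replicate 2, where Adra1b was 3.33-fold higher (2.83 to 3.94). The place of Chrm2 above Adrb1 was therefore common to both libraries and the place of Adrb1 beside Adra1b was not.

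Markers of the nerve cells that release the ligands of these receptors were at or near 0 in replicate 1 and low in replicate 2. Of 7 markers of autonomic neurons and nerves, 0 reached 1 TPM in replicate 1 and 1 in replicate 2, with sums of 0.05 and 1.37 TPM. That gene was Dbh, the enzyme that makes noradrenaline, with no count in replicate 1 and 51 counts and 1.12 TPM in replicate 2, and it was called higher. Th, which makes its precursor, had no count and 0.19 TPM, and Slc5a7, the choline transporter, had 0.04 and 0.03 TPM. The acetylcholine genes Chat and Slc18a3 had no count in either library.

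The 3 adenylyl cyclases, which turn ATP into cyclic AMP, were all called higher in replicate 2. Adcy6, one of the main cyclases of heart muscle and inhibited by calcium, had 133 counts and 0.70 TPM in replicate 1 and 5312 counts and 47.1 TPM in replicate 2, or 9.70 and 121 nuclear TPM. Replicate 2 was higher by 16.04-fold (95% exact binomial interval 13.5 to 19.2). It was the highest of the 9 genes in replicate 2, where it exceeded Chrm2 by 1.84-fold (1.75 to 1.92), and the fourth in replicate 1. In replicate 2 it stood above 93.7% of the nuclear genes with a count, and in replicate 1 above 54.1%.

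Adcy5, the closest relative of Adcy6 and the other calcium-inhibited cyclase of heart, had 73 counts and 0.33 TPM in replicate 1 and 1711 counts and 13.0 TPM in replicate 2, or 4.57 and 33.2 nuclear TPM. It was 9.41-fold higher in replicate 2 (95% exact binomial interval 7.45 to 12.1). Adcy9, a cyclase insensitive to the plant compound forskolin or only weakly stimulated by it, had 14 counts and 0.10 TPM in replicate 1 and 411 counts and 4.82 TPM in replicate 2, or 1.39 and 12.3 nuclear TPM. It was 11.8-fold higher in replicate 2 (95% exact binomial interval 6.95 to 21.8; adjusted p = 6.01e-42 by the exact binomial test).

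The order of the cyclases was the same in both libraries despite these differences. Adcy6 exceeded Adcy5 by 2.13-fold in counts per effective length in replicate 1 (95% exact binomial interval 1.59 to 2.88) and by 3.63-fold in replicate 2 (3.44 to 3.84), a mean log2 ratio of 1.37 ± 0.68 (SD, n = 2). Adcy5 exceeded Adcy9 by 3.26-fold (1.83 to 6.26) and 2.69-fold (2.41 to 3.003), a mean log2 ratio of 1.26 ± 0.22. Adcy6 exceeded Adcy9 by 6.96-fold (4.004 to 13.1) and 9.77-fold (8.83 to 10.8). Every one of these intervals lies above a ratio of 1.

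Adcy5 and Adcy6 each had a single transcript in the tables, as did Adrb1 and Adra1d. Adcy9 had 3, and the leading transcript changed: Adcy9-201 was given 100% in replicate 1, on 14 counts, and 0% in replicate 2, where Adcy9-202 carried 81.4% and Adcy9-203 carried 18.6%. Adcy9-201 and Adcy9-202 encode the same 1353 residues. By the deposited posterior means, which spread counts over all forms, Adcy9-201 had 40.8% in replicate 1 and Adcy9-202 had 36.6%, so the replicate 1 share rests on the estimate chosen.

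Of all 10 adenylyl cyclase genes, these 3 held 55.1% of the summed TPM in replicate 1 and 84.5% in replicate 2. Adcy6 alone held 34.1% and 61.3%, Adcy5 held 16.1% and 16.9%, and Adcy9 held 4.88% and 6.27%. Of the other 7 cyclases 4 were tested, 2 were called higher in replicate 2 (40.5% of all genes) and 0 lower (23.9%). Adcy4 had 0.05 and 6.47 TPM, Adcy7 had 0.67 and 2.64 TPM, and Adcy1 had 0.18 and 1.08 TPM. Adcy10, the soluble cyclase activated by bicarbonate, had no count in either library. On the nuclear scale Adcy7 was at 9.28 TPM and Adcy9 at 1.39 TPM in replicate 1, and at 6.75 and 12.3 TPM in replicate 2.

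**Figure D3:**
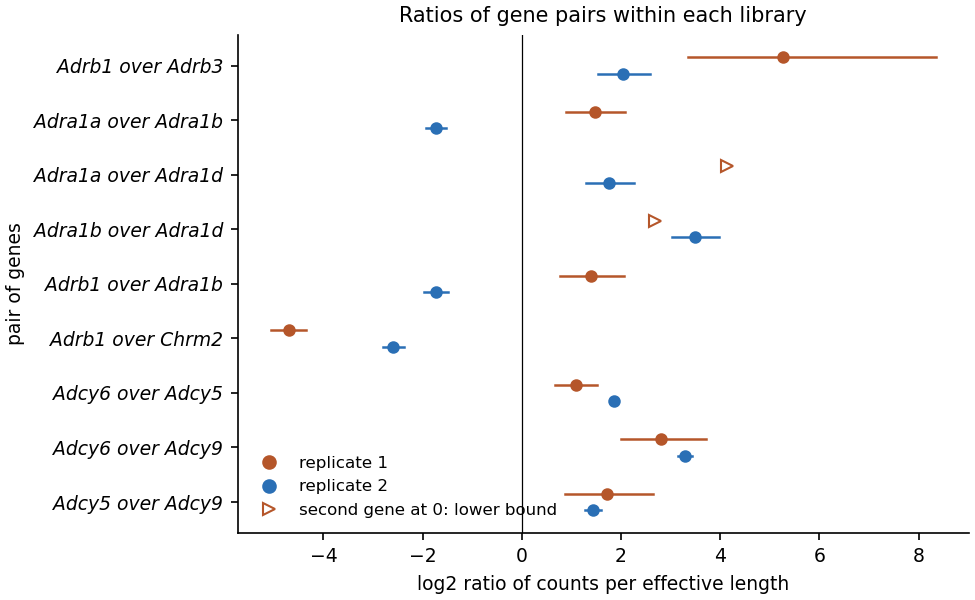
Ratio of the first to the second gene of 9 pairs, as the log2 of counts per effective length, in replicate 1 (brown) and replicate 2 (blue). Bars are 95% exact binomial intervals for counting error. Triangles mark ratios that are bounded only from below, because the second gene had no count. In 7 of the 9 pairs both libraries lie on the same side of 0, and Adra1a over Adra1b and Adrb1 over Adra1b lie on opposite sides.

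Ordered by counts per effective length, replicate 1 gave Chrm2, Adra1a, Adrb1, Adcy6, Adra1b, Adcy5, Adcy9, Adrb3 and Adra1d, from high to low. In that order Adra1a and Adrb1, Adrb1 and Adcy6, Adra1b and Adcy5, Adcy9 and Adrb3, and Adrb3 and Adra1d did not differ beyond counting error. Replicate 2 gave Adcy6, Chrm2, Adra1b, Adcy5, Adcy9, Adra1a, Adrb1, Adra1d and Adrb3. There Adra1b and Adcy5, Adcy9 and Adra1a, Adra1a and Adrb1, and Adra1d and Adrb3 did not differ beyond it. Common to both orders were Chrm2 above all other receptors, Adra1a beside Adrb1, and Adrb3 and Adra1d in the last places.

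**Figure D4:**
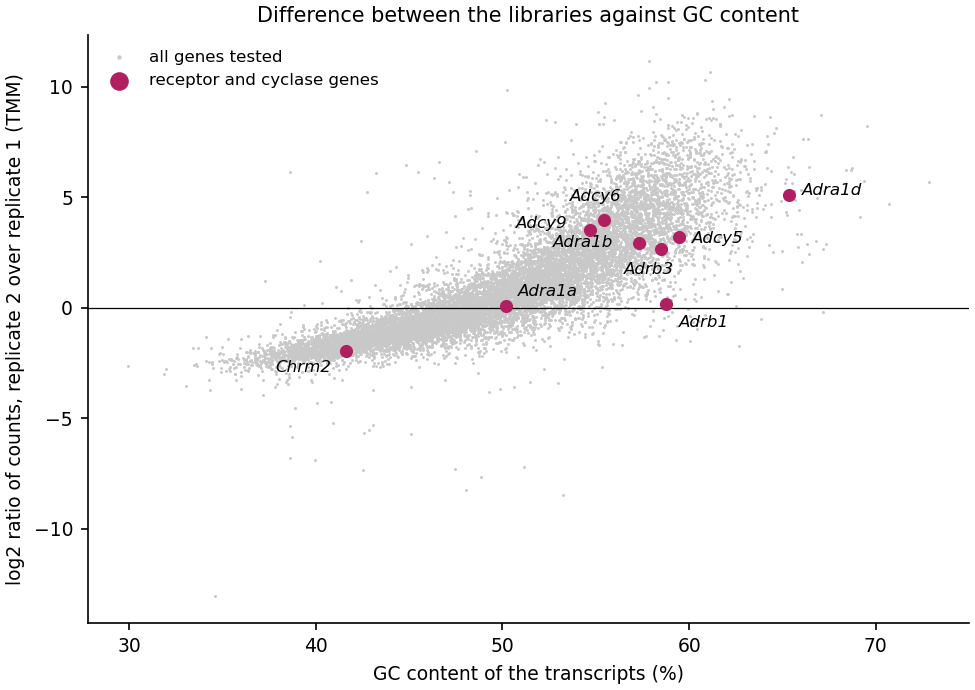
Log2 ratio of TMM-scaled counts, replicate 2 over replicate 1, against the GC content of the transcripts in percent, for all genes tested (grey) and the 9 genes (purple). The ratio rises with GC content over the whole table, and Adrb1 lies at 0.16, below the median of 4.41 for its composition.

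The difference between the libraries went with GC content over the whole table. Across 13155 genes tested with a known GC content Pearson's r between GC content and the log2 ratio was 0.85 and Spearman's rho 0.90, and across the 9 genes r was 0.80 and rho 0.53, or 0.57 and 0.33 without Chrm2. All points share the same 2 libraries, and these are descriptions across genes, which are not replicates. When the median log2 ratio of each of 50 bins of GC content was taken as the expectation, 1 of the 9 genes was called higher in replicate 2, against 10.2% of all genes, and 2 were called lower, against 10.9%.

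The gene called higher was Adcy6, with a remaining log2 ratio of 1.06, and those called lower were Adrb1, with -4.25, and Adcy5, with -1.39. The other 6 genes kept remaining ratios between -1.75 for Adrb3 and 0.70 for Adcy9 and were not called. Chrm2 was at -0.31 and Adra1b at -0.86 on this scale. Adra1a was at -0.50 and Adra1d at -0.19.

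The genes through which the receptors and cyclases signal were taken from lists of 73 genes, of which 64 were tested. Of these 24 were called higher in replicate 2, against 40.5% of all genes tested, 14 lower, against 23.9%, and 26 were not called, so the counts are near the shares of the whole table. Their median log2 ratio was 0.33, beside 0.37 over all genes tested. With the GC trend removed 4 were called higher, against 10.2% of all genes, and 8 lower, against 10.9%. The other receptor subtypes were scarce: of 7 genes 2 were tested and none reached 1 TPM, with Chrm3 at 0.02 and 0.31 TPM and Adra2b at 0.02 and 0.29 TPM as the highest. Adra2c followed with no count and 0.05 TPM, and Chrm1 and Chrm5 had no count in either library.

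All 18 G protein subunits were tested, 6 were called higher (40.5% of all genes) and 7 lower (23.9% of all genes). Gnas, which encodes the stimulatory α subunit that couples β receptors to cyclase, had 57.9 and 387 TPM, and its log2 ratio of 0.70 was under the 2-fold limit. Gng5, a γ subunit, had 104 and 153 TPM and was called lower, with a log2 ratio of -1.52. Its annotated pseudogene Gng5-ps had no count. Gng11, another γ subunit, had 17.3 and 28.3 TPM and was called lower, with a log2 ratio of -1.35.

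Of 7 receptor kinases and arrestins, which switch receptors off, 4 were called higher and 1 lower, where 40.5% and 23.9% of all genes were. Grk2, the main β receptor kinase of heart, had 1.33 and 20.6 TPM and was called higher, with a log2 ratio of 4.26. On the nuclear scale, which corrects for length as the scaled counts do not, it had 18.4 and 52.7 TPM, a 2.86-fold difference. For Grk2 3 counts stood for 0.181 TPM in replicate 1 and 0.0574 TPM in replicate 2. For Adrb1, with a single transcript, they stood for 0.0402 and 0.0674 TPM. The length correction of Grk2 thus differed between the libraries, and the size depends on it. Grk5 had 1.76 and 12.3 TPM and was not called. Arrb1, a β-arrestin, had 0.41 and 7.31 TPM and was called higher, with a log2 ratio of 1.76.

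Of 17 genes for protein kinase A and other cyclic AMP effectors, 5 were called higher and 4 lower, beside 40.5% and 23.9% of all genes. Pkia, an inhibitor of the kinase, had 67.4 and 102 TPM and was called lower, with a log2 ratio of -1.94. Prkar1a, a regulatory subunit, had 57.5 and 131 TPM and was not called, and Popdc2, a membrane protein that binds cyclic AMP, had 6.60 and 199 TPM and was called higher, with a log2 ratio of 2.85.

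On the α1 route, 3 of the 9 phospholipase C, protein kinase C and calcium release genes were called higher and 1 lower, again beside 40.5% and 23.9% of all genes. Plcb4 had 12.2 and 25.6 TPM and was the gene called lower, with a log2 ratio of -1.17, while Prkca had 4.16 and 5.64 TPM (57.6 and 14.4 nuclear TPM) and Prkce had 2.02 and 6.24 TPM, and neither was called. Among 8 RGS proteins, which shorten G protein signals, 7 were tested, 2 were called higher and 1 lower, with the same shares of all genes beside them. Rgs5, which is also in the pericyte list, had 101 and 126 TPM and was the one called lower, Rgs2 had 9.55 and 16.5 TPM (132 and 42.2 nuclear TPM), and Rgs4 had 2.88 and 6.86 TPM.

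Summed by class, the nuclear TPM of the β receptors Adrb1 and Adrb3 was 12.9 in replicate 1 and 13.6 in replicate 2. That of the 3 α1 receptors was 18.1 and 50.6, that of the 3 cyclases 15.7 and 166, and that of the 6 receptors with Chrm2 included 358 and 130. The whole set of 9 had 373 and 296 nuclear TPM, and 46.7 and 230 without Chrm2. The sum over the set thus hid opposite differences, with Chrm2 lower in replicate 2 and the cyclases higher.

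Genes that overlap the set in the annotation were also looked up. The annotated genes on the other strand of Adra1d (Gm14285) and of Adcy6 (Gm29331) had no count in either library, as had Gm6142 within Adcy9 and Mir490 within Chrm2. Gm45470, opposite Adrb3 in M21, was not analysed here.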

How the data were processed

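Poly(A) RNA of mouse heart was sequenced in 2 technical replicate libraries of 1 biological replicate, which are the replicates compared. Gene and transcript values refer to mm10 and annotation M4, per the deposited file descriptions, while aligner, quantifier and use of strand were not given in the sources used here. The deposited tables hold expected counts, which need not be whole and were rounded for tests. TPM in the deposited tables adds to the same total in each library, so a gene's TPM falls as other RNA grows. FPKM values are deposited beside them and were not used. Transcript shares are the percent of a gene's abundance in the deposited transcript tables. Identifiers were matched without version to GENCODE M21, which named 42462 of 43346 genes, and coordinates are 1-based from M21. GC content per gene is the TPM-weighted mean over M21 transcripts and was known for 99.8% of the genes tested. Nuclear copies of mitochondrial genes (10 with counts) were identical to them at 95% or more of bases over 90% or more of the copy, by blastn 2.17.0.

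Counts were compared with the exact binomial test of edgeR 4.0.16 in R 4.3.3 on TMM-scaled library sizes, for genes with at least 20 counts over both libraries, with 0.5 counts added in log2 ratios. The calling step was tested on simulated data. Within a library, ratios use counts per effective length with 95% exact binomial intervals, and mean log2 ratios use TPM + 0.1. Intervals and limits (3 counts for a count of 0) cover counting error alone, because reads can be copies of a molecule. Alternatives covered scaling (DESeq2 1.42.0 size factors among them), count minimums, the GC trend, posterior means, the pseudocount and each library alone. Of the pathway lists the 3 genes of highest mean nuclear TPM and any gene without a count are named, of the marker lists (cardiomyocyte, adipocyte, smooth muscle and pericyte, endothelial, fibroblast, autonomic neuron and nerve) the 3 of highest mean TPM, and of transcripts those with at least 10% of a gene. Other genes named were picked after their values were seen, and the values of 1 marker are not reported here. The 9 genes, lists and tests were chosen with earlier results of these data known. RefSeq promoter windows were found for 5 of the 9 genes (6 windows). Python 3.11.15, numpy 2.4.6, scipy 1.17.1, pandas 2.3.3 and matplotlib 3.10.9 were used.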

Additional observations from a re-analysis of the deposited data

How the results depend on the processing

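These data limit statements to 1 biological replicate and 2 libraries that differ in composition, with 133 counts or fewer in replicate 1 for each of the 9 genes but Chrm2. Scaling by total counts moved the median log2 ratio of all genes tested by 1.53. It left 0 of the 9 genes and 0 pathway genes lower and called 39 pathway genes higher, and Adrb1 (1.69) and Adra1a (1.61) were then called higher while Chrm2 (-0.41) was not called. Without the fold limit 28 pathway genes were lower. With the GC trend removed 1 of the 9 was higher and 2 lower, and 4 and 8 pathway genes. The log2 ratio then turned to -4.25 for Adrb1, -1.75 for Adrb3, -0.50 for Adra1a, -0.86 for Adra1b, -0.19 for Adra1d and -1.39 for Adcy5, and Chrm2 (-0.31) and Adcy9 (0.70) were no longer called.

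The pair ratios kept their sign under every alternative except in 2 pairs. Without replicate 1 and without replicate 2, Adra1a over Adra1b gave -1.70 and 1.24, and Adrb1 over Adra1b gave -1.71 and 1.17. With replicate 1 brought to the GC profile of replicate 2, Adrb1 over Adra1b turned to 0.14, and Adra1a over Adra1b was at -1.69. The log2 ratio was then 3.58 for Adrb1 over Adrb3, 4.50 for Adra1b over Adra1d, -0.61 for Adrb1 over Chrm2, 0.63 for Adcy6 over Adcy5 and 2.38 for Adcy5 over Adcy9. With a pseudocount of 1 TPM it was 1.14 for Adrb1 over Adrb3, 1.10 for Adra1a over Adra1d, 1.59 for Adra1b over Adra1d and 0.77 for Adcy5 over Adcy9. On TPM without mitochondrial genes and copies these 4 were 3.54, 4.40, 4.54 and 1.54. That rescaling multiplies all nuclear genes of a library by the same factor, so within a library only the weight of the added 0.1 TPM changed. The cause of the changes under the GC profile was not tested. DESeq2 size factors, sums of nuclear counts, the count minimums and posterior means changed no count of the 9 genes called by over 1.5 times. Counts for single lists also moved. With the GC trend removed, those higher and lower went from 2 and 0 to 1 and 2 for other cyclases, from 6 and 7 to 2 and 4 for G proteins, from 4 and 1 to 0 and 0 for kinases and arrestins, from 5 and 4 to 1 and 1 for protein kinase A and from 2 and 1 to 0 and 0 for RGS proteins. The 3 higher in the phospholipase list became 0, as did the 2 of the other receptor subtypes, also under DESeq2 size factors and count minimums of 1 or 100. A minimum of 100 left 0 kinases lower. By total counts 0 genes were lower in any list and 4 other cyclases, 8 protein kinase A, 6 phospholipase and 4 RGS genes were higher. Without the fold limit 2 kinases, 10 protein kinase A, 4 phospholipase and 3 RGS genes were lower and 5 phospholipase genes higher, and DESeq2 size factors gave 7 protein kinase A and 2 phospholipase genes lower. No paired analysis was possible because there is only 1 group.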
